A study of Mus musculus with 28 samples.

Results

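Potassium channel genes were examined for H3K27ac, the acetylated form of histone H3 found at promoters and enhancers in use, in mouse cranial neural crest, the migratory cells that build much of the face. The genes were all protein-coding genes of the GRCm38 RefSeq annotation whose symbol starts with Kcn, apart from 2 that were left out of the list. This gave 92 of 21887 protein-coding genes, in 21 subfamilies. The measurement is 1 deposited list of H3K27ac intervals, called once on the merged reads of 4 libraries. They came from wild-type (WT) embryos at E10.5, with 1 library for each of the cell subpopulations FNP, Mx, Md and PA2, whose crest cells were sorted by FACS after dissection. The other libraries among the 28 of the series were not analysed here. Pooling leaves no replicates and no read depth, and hides which subpopulation carried a given interval. Every comparison is therefore between genes of 1 list and carries no test.

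Potassium channels let potassium leave or enter the cell and so set its resting voltage, shape electrical signals and steer cell volume. Pore subunits open with voltage (such as Kcna, Kcnh and Kcnq), with calcium or sodium (Kcnma, Kcnn, Kcnt), conduct best inwards (Kcnj), or leak at rest (Kcnk, with a pair of pore domains per subunit), and auxiliary proteins (Kcnab, Kcne, Kcnip, Kcnmb) bind them and change their opening or traffic. Most are known from neurons, muscle and epithelia, but in human patients mutations of KCNJ2, KCNH1 and KCNN3 go with facial as well as excitability or neural features.

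The promoters of 8 members are shown because they span the range of marks described below. The first 6 lie under or beside some of the higher-scored intervals of their class, and those of Kcnc1 and Kcnk15 have no interval within 1 kb of their start. Each is the RefSeq window in GRCm38.p6 from 250 bases before to 50 bases after a transcription start, 5′ to 3′, with every CpG dinucleotide in capitals.

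Kcna3 (chr3:107035912-107036211, + strand): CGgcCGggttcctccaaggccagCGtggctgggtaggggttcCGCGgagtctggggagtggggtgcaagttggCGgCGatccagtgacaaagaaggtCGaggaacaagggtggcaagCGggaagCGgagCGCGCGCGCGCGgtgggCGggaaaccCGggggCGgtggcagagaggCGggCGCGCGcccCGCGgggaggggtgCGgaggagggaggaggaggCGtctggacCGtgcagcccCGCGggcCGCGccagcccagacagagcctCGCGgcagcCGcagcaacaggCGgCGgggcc

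Kcnab2 (chr4:152477500-152477799, - strand): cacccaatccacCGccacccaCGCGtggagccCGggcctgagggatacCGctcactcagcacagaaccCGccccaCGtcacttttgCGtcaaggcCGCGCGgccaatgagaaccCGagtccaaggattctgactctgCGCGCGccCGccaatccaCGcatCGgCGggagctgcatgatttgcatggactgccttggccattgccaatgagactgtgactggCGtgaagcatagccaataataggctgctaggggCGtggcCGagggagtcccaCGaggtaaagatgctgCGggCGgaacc

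Kcnk5 (chr14:20181733-20182032, - strand): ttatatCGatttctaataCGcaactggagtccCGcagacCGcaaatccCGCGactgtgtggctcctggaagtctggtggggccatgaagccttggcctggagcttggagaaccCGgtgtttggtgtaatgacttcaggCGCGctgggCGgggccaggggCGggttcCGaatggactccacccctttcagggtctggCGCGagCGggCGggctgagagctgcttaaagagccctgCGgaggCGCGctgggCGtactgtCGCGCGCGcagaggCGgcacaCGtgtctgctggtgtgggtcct

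Kcnk2 (chr1:189343304-189343603, - strand): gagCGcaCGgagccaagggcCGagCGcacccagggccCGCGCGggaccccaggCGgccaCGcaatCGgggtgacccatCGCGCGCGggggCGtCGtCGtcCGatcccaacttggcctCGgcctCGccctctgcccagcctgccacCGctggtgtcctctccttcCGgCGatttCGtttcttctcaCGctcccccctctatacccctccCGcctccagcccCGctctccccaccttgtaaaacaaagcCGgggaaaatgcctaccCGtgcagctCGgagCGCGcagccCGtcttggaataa

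Kcnmb4 (chr10:116473474-116473773, - strand): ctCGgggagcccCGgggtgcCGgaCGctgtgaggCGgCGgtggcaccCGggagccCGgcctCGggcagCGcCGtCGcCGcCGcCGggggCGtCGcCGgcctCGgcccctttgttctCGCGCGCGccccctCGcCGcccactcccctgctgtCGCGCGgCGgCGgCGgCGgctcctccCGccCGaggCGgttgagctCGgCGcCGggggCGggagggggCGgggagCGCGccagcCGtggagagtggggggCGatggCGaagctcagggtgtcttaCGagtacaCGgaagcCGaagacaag

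Kcnj2 (chr11:111065914-111066213, + strand): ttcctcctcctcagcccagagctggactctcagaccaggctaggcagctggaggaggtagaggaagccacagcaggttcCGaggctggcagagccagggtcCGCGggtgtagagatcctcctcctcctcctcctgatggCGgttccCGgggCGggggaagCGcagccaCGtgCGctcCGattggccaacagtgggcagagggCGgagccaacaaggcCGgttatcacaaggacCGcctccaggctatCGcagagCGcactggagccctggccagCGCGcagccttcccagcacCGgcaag

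Kcnc1 (chr7:46396218-46396517, + strand): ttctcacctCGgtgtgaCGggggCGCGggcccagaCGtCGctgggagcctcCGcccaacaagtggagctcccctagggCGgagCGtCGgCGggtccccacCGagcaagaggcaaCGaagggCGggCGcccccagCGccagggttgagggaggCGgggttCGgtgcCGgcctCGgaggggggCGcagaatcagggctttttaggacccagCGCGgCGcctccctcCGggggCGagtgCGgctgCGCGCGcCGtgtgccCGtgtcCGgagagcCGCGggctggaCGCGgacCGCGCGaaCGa

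Kcnk15 (chr2:163853500-163853799, + strand): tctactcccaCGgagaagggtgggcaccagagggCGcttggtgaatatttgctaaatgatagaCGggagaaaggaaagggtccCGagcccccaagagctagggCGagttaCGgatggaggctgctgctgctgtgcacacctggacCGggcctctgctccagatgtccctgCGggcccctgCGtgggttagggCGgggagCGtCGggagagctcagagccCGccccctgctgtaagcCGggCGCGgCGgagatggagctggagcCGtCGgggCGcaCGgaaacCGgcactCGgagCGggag

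The windows of Kcna3, Kcnab2 and Kcnk5 held 37, 25 and 26 CpG dinucleotides. The Kcnk2 window, at a start site inside the gene, held 33, Kcnmb4 held 48 and Kcnj2 held 18. The unmarked windows of Kcnc1 and Kcnk15 held 41 and 24, within the range of the other printed windows. The letters GGGCGG, searched on both strands, were present in all of these windows except that of Kcnk2 (46.3% of 17492 protein-coding promoter windows hold them), and TATAAA was present in none of them (13.3% of windows). GCCNNNGGC was present at Kcnk5, Kcnk2, Kcnmb4 and Kcnc1 (19.6% of windows), and matches of different motifs were counted apart even where they overlap. The window at another start of Kcnk2 under the same H3K27ac interval (chr1:189343658-189343957, not printed) held GGGCGG but not GCCNNNGGC. Among members with a window and no interval at an end or inside, Kcnc1 and Kcnk15 held the most CpG dinucleotides. Kcnh8 held 21, Kcna4 20, Kcne2 9 at its outer start, Kcnmb1 and Kcnrg 1 each, and Kcna10 0. Windows of marked members that are not printed varied widely too, with 3 at Kcnf1 (score 1481) and 49 at Kcng3 (score 555). Windows were at hand for 69 of the 92 members, under the 80% needed, so a comparison of promoter composition over the list is void.

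Potassium channel genes were marked at a share close to that of all genes within 1 kb of an end, but with lower scores. Marked genes were those with any interval reaching, by 1 bp or more, within 1 kb of one of the annotated gene ends. By this rule 60 of 92 members (65.2%) were marked, beside a background of 65.0% of all protein-coding genes. The order of the shares turned with the setting. With a window of 2.5 kb it was 83.7% of members and 70.8% of all genes. With scores of at least 100 it was 52.2% and 61.2%, and in the higher-scored 50% of intervals 51.1% and 60.5%. In the reported setting the exact 95% binomial interval of the members' share was 54.6 to 74.9%, which covers counting error only, since genes are not replicates. The score is the value that the peak caller MACS2 gave each interval, which grows with its significance and read number and is used here to rank intervals within the list. The median of the highest gene-end score was 289 in the 60 marked members (quartiles 120 and 638, range 47 to 13111), against 2494 in all marked protein-coding genes (quartiles 705 and 4794). An end was called strong when its highest score reached that median of 2494. Strong marks were found at 2 members (2.17%), Kcnab2 and Kcna3, beside a background of 32.5% of all protein-coding genes. The nearest members below the threshold were Kcnk5, Kcnn1 and Kcnmb4, with scores of 2287, 2026 and 1544.

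Members were scarcer than all genes at each higher score examined. A score of at least 500 was reached by 23 members (25.0%), against 51.4% of all protein-coding genes, and a score of at least 1000 by 9 members (9.78%), against 45.5%. Of the marked members, 47 lay under the lower quartile of all marked genes, 704.5, and 12 (20.0%) had highest scores under 100, against 5.94% of all marked genes. Their gene-end intervals were also narrower, with a median of 411 bp, against 618 bp over all protein-coding genes. A gene-end interval of 1 kb or more was present at 12 marked members (20.0%), against 34.3% of all marked genes, and the widest, 1478 bp, lay at Kcnq5.

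**Figure D1:**
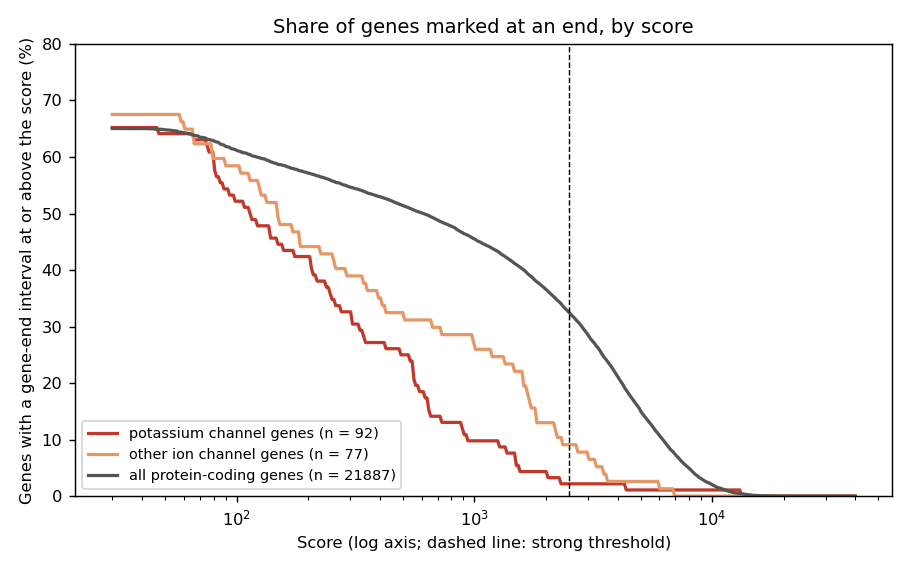
Percentage of genes (y axis) whose highest-scored gene-end interval is at or above the score on the x axis (log scale), for potassium channel genes, for other ion channel genes and for all protein-coding genes. The curves start at 65.2%, 67.5% and 65.0%, and at the strong threshold (dashed line, 2494) they stand at 2.17%, 9.09% and 32.5%.

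Sodium, calcium, chloride, pacemaker and TRP channel genes were also often marked and seldom strong. Of these 77 genes, taken by symbol, 52 (67.5%) were marked and 7 (9.09%) were strong, and the median highest score of the marked ones was 413. The highest was 6947 at Trpc4ap, which the symbol rule takes in although it encodes a protein that binds a TRP channel. Scn8a, a neuronal sodium channel gene, had 3592, and Clcn7, a lysosomal chloride transporter gene, had 3247.

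Voltage-gated pore genes were marked in 25 of 39 members (64.1%), with a median highest score of 486. Kcna3, a delayed rectifier best known in lymphocytes and neurons, led the class with a score of 4338 in an interval of 1369 bp over its 5′ end (chr3:107035514-107036882), which touched no other gene end. Its neighbours in the same gene cluster, Kcna2 and Kcna10, had no interval at an end. The 52.8 kb between Kcna3 and Kcna2 separated the highest voltage-gated score from a gene unmarked at its ends. Kcna2 did hold 2 intervals inside, with scores of 126 and 360, within 1 kb of its own RefSeq start. In the other cluster, Kcna6 had 879, Kcna5 583 and Kcna1 80, and Kcna7, on another chromosome, had 205. Kcna4 was unmarked. Gene-end marks within a subfamily of closely related pores thus ran from none to above the median of all marked genes.

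The gene for the modifier subunit Kcnf1, which forms no channel alone, had a score of 1481, and Kcnb2, a delayed rectifier that such modifiers join, had 1482. Among the other modifiers, Kcng3 had 555, Kcng1 486, Kcng2 274, Kcns3 217, Kcnv2 149 and Kcns1 80, while Kcng4, Kcns2 and Kcnv1 were unmarked at their ends. Kcnd3 and Kcnd2, which carry transient outward current in heart and neurons, had 933 and 548, and Kcnd1 had none. Kcnc genes, which serve fast-firing neurons, had low scores or none, with 306 at Kcnc2, 209 at Kcnc4 and none at Kcnc1.

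Kcnq5 and Kcnq3, which carry the slow current that damps repeated firing, had 896 and 557. The ether-a-go-go subfamily, Kcnh, was marked least at its annotated ends among subfamilies with 5 or more members, in 3 of 8. Of those unmarked, Kcnh1 and Kcnh4 had scores of 619 and 376 just inside, within 1 kb of a RefSeq start of their own. Kcnh2, which repolarises heart muscle, had 723 at its 5′ end and 452 at its 3′ end, Kcnh6 had 650 at its 3′ end only, and Kcnh5 had 137. The Kcnh2 intervals at its ends lay away from its listed RefSeq start, inside the gene, where the highest score was 588. The Kcnh6 interval lay also within 1 kb of an end of Dcaf7.

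Calcium- or sodium-activated pore genes, with Kcnu1 grouped among them, were marked in 6 of 8 members, with a median of 585. Kcnn1, a small-conductance channel opened by calcium, had 2 adjoining intervals at its annotated 5′ end, with scores of 2026 (chr8:70864706-70865747, 1042 bp) and 1351. Neither lay within 1 kb of a listed RefSeq start of Kcnn1, and the highest score at such a start, inside the gene, was 470. The other small- and intermediate-conductance genes had far lower ends, with 560 at Kcnn2, 97 at Kcnn4 and 66 at Kcnn3. Kcnma1, the large-conductance pore, had 610 and the sodium-activated Kcnt2 had 637. Kcnt1 had no interval at an end, and Kcnu1, whose channel is known from sperm, had none at all.

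Inward rectifier genes were marked in 10 of 15 members (66.7%), but with the lowest median of the 5 classes, 114. Kcnj2, which steadies the resting potential of muscle and other cells, had the highest gene-end score of the class, with 3 intervals at its 5′ end, of scores 380, 1268 and 213. The highest spanned 477 bp (chr11:111065560-111066036). The next were Kcnj12, its close relative, with 329, and Kcnj8, the pore of the vascular ATP-sensitive channel, with 204. The Kcnj12 interval lay away from the listed RefSeq start of the gene, which had no interval within 1 kb. The other 7 marked members ranged from 74 at Kcnj16 to 173 at Kcnj6. Among these was Kcnj4, another strong inward rectifier, which had 115 at an end but 824 inside the gene at its RefSeq start (chr15:79505263-79505979). With scores of at least 100 the count was 6 of 15 (40.0%), below the 61.2% of all protein-coding genes at that setting. Kcnj2 lies 1.71 Mb from Sox9, the cartilage regulator, on chromosome 11. That stretch held 136 intervals and 1 other protein-coding gene, and the end of Sox9 had a score of 1436. Kcnj16, the next gene on the other side 38.2 kb away, had only 74 at an end but 11 intervals inside.

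The leak channel genes, Kcnk, were marked in 8 of 13 members (61.5%), with a median of 198. Kcnk5, a pH-sensitive leak channel known from kidney, had 2287 in an interval of 1065 bp over its 5′ end (chr14:20180747-20181811). Kcnk16, 79.6 kb away in the same cluster, had 47, the lowest score at any marked member. Kcnk6 had 641, Kcnk2 418, Kcnk10 258, Kcnk12 137, Kcnk4 121 and Kcnk7 107.

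Auxiliary and interacting proteins were marked in 11 of 17 members (64.7%), with a median of 342. The highest score of all members, 13111, lay at Kcnab2, whose product binds Kcna pores (chr4:152477681-152478238, 558 bp). This interval began 132 bp outside the 5′ end of Kcnab2 and lay also within 1 kb of an end of Nphp4, a cilium gene, so the marks of the 2 genes cannot be told apart. Kcnab3 and Kcnab1 had 1357 and 155. Kcnmb4, the neuronal partner of the large-conductance pore, had 1544 in an interval of 1463 bp over its 5′ end, which also touched an end of the antisense gene Kcnmb4os2, whereas Kcnmb1, Kcnmb2 and Kcnmb3 had no interval at an end. All 4 Kcnip genes, whose products bind Kcnd pores, were marked, with 345 at Kcnip4, 342 at Kcnip3, 93 at Kcnip2 and 88 at Kcnip1. The Kcnip4 interval lay away from the listed RefSeq starts of the gene, where the highest score, inside the gene, was 279. Kcne4 had 529 at its 3′ end only, Kcne1l 244 and Kcne1 82, and Kcnrg had none.

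**Figure D2:**
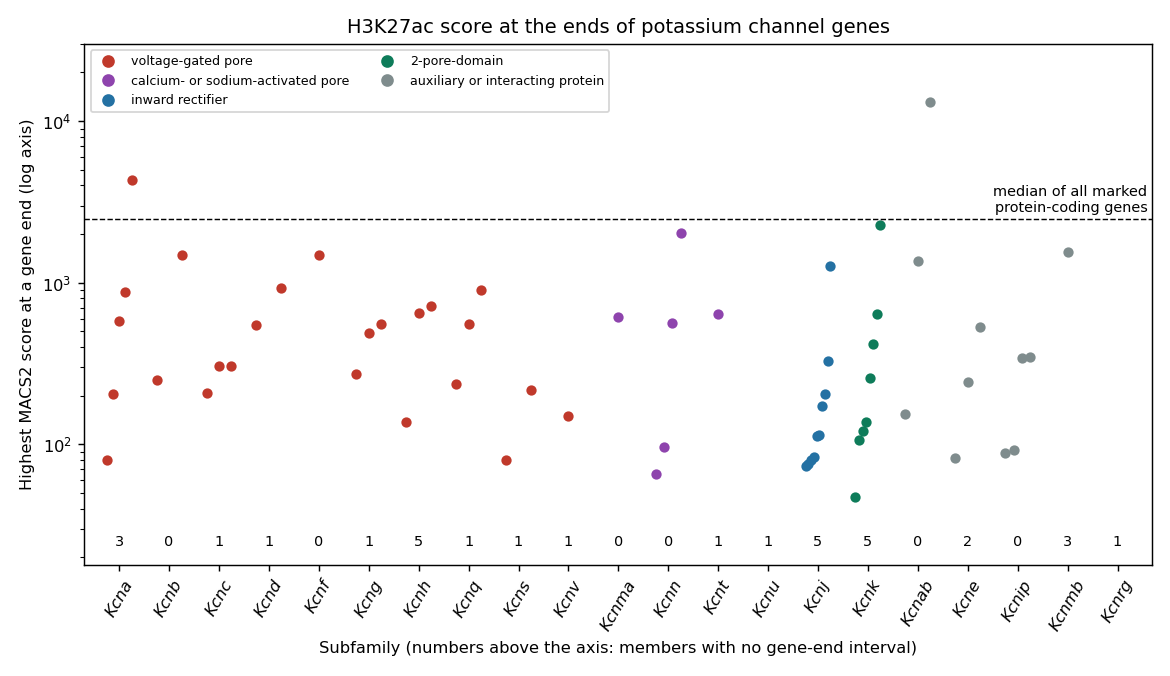
Highest MACS2 score at a gene end (y axis, log scale) for each marked potassium channel gene, by subfamily (x axis) and coloured by class; each point is 1 gene, and the number above the axis counts members with no gene-end interval. Kcna3 and Kcnab2 stand above the dashed line at 2494, the median of all marked protein-coding genes, and most of the Kcnj genes lie near or under 200.

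The subfamilies differed in how many members were marked, but small sizes allow wide ranges. Among others, Kcnf (1 gene), Kcnma (1), Kcnn (4), Kcnab (3) and Kcnip (4) were marked in every member, and Kcnmb in 1 of 4. The class shares started at 61.5% for leak channels, beside a background of 65.0%. The exact 95% binomial interval, which covers counting error only, was 47.2 to 78.8% for the 39 voltage-gated genes and included 65.0% in each of the 5 classes.

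Strand was known for 69 members. An interval lay at the 5′ end of 42 of them (60.9%), beside a background of 62.0% of genes with a known strand. Only the 3′ end was marked at 4 members (5.80%), Kcne4, Kcnh6, Kcnj1 and Kcnk12, against 2.89% of all such genes. Few of these intervals were shared with a neighbouring gene. An interval shared with the end of another protein-coding gene occurred at 3 of 60 marked members (5.00%), Kcnab2 and Kcnh6 among them, against 26.8% of all marked genes. Among genes with only unshared intervals the score gap remained, with a median of 258 in 57 members and 2020 in 10422 protein-coding genes, and strong marks in 1.75% and 44.3%.

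Intervals inside the genes, away from both of their ends, were present in a larger share of members than of all genes. At least 1 lay in 61 members (66.3%), beside a background of 41.2% of all protein-coding genes. The median length was 32.4 kb for members and 17.2 kb for all protein-coding genes, and the part of length in the difference was read only by length bands. Under 10 kb, 23.8% of 21 members held an inside interval, against 7.71% of all genes of that length, and 66.7% were marked at an end, against 47.4%. In genes of 10 to 50 kb, 24 of 34 members (70.6%) held an inside interval, against 45.3%, and 52.9% were marked at an end, against 72.6%. In genes of 50 to 200 kb the shares inside were 85.0% for 20 members and 85.3% for all genes, and 15 of the members were marked at an end, against 79.8% of all genes. From 200 kb up, 88.2% of 17 members and 96.1% of all genes held one inside, and 76.5% and 78.5% were marked at an end. At gene ends the share of members was thus higher than that of all genes under 10 kb and lower at 10 to 50 kb. From 50 kb up the shares were close.

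Density also depended on length and on how it was summed. The median per gene was 2.92 intervals per 100 kb in members and 0 in all protein-coding genes, and in genes of 10 to 50 kb it was 6.13 and 0. In genes of 50 to 200 kb it was 3.33 in members and 4.54 in all genes. From 200 kb up it was 2.30 and 5.11, with a median of 12 and 18 intervals per gene.

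Members held 337 inside intervals, or 3.27 per 100 kb of gene summed over the list, against 5.03 over all protein-coding genes. Their median score was 89, against 99 over all genes, and 57.6% were under 100, against 50.4% over all genes. Of the 337, 211 (62.6%) lay in 13 long or dense members. Kcnma1 held the most, with 38 over 712.8 kb, and none of these scored above 389. Kcnip1, a calcium-sensing partner of Kcnd pores, held 26 over 364 kb, the highest, 844, at one of its own start sites inside the gene, although its annotated 5′ end had a score of only 88. Kcnmb2 held 17, Kcnj6 and Kcnn3 15 each, Kcnd3, Kcnh1 and Kcnip4 14 each, Kcnq5 13, and Kcnab1 and Kcnb2 12 each. Per length the densest of them were Kcnh2, with 10 intervals in 32.1 kb (31.2 per 100 kb), and Kcnj16, with 11 in 59.9 kb (18.4 per 100 kb).

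**Figure D3:**
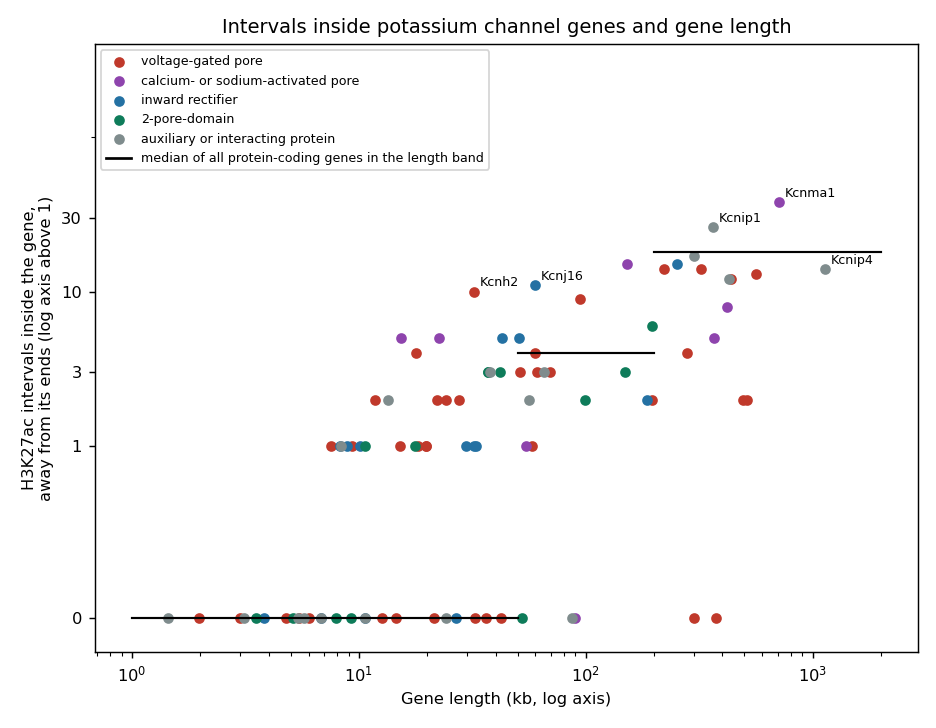
Number of H3K27ac intervals inside each potassium channel gene and away from its ends (y axis, linear up to 1 and log above) against gene length (x axis, kb, log scale), coloured by class; black lines give the median of all protein-coding genes in each length band. Kcnma1 and Kcnip1 lie above the median of 18 for genes of 200 kb and over, and Kcnip4, with 14 in 1136 kb, lies below it.

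**Figure D4:**
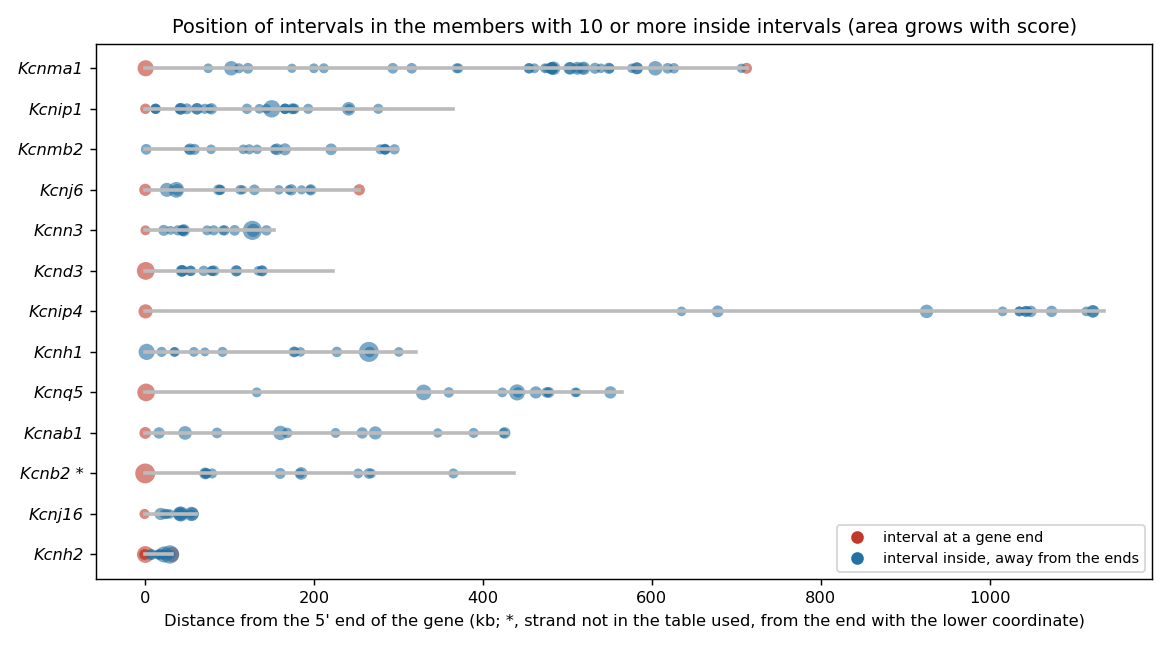
Intervals along the 13 members with 10 or more inside intervals, placed by distance from the 5′ end of the gene (x axis, kb; for Kcnb2, whose strand was not in the table used, from the end with the lower coordinate); red points are intervals at a gene end, blue points are inside, and point area grows with the score. In Kcnip4 and Kcnq5 the inside intervals lie mostly towards the 3′ end, and in Kcnh1, which has no interval at an end, the highest score of 1510 lies deep inside.

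Several members carried their highest score inside the gene; these were picked out after their values were seen. Kcnn2 had 5893 in an interval of 687 bp far inside, at an end of the non-coding gene Gm32139, against 560 at its own end. No RefSeq start of Kcnn2 was listed, so whether this interval lies at one could not be read. Kcnk2, a leak channel gated by stretch, had 2129 in an interval 58715 bp inside its 5′ end, at a RefSeq start site of its own and beside the non-coding gene A430027H14Rik (chr1:189343302-189344067), against 418 at its outer end. Kcnk1 had 1213 in an interval 1376 bp inside its 5′ end, at a RefSeq start site, and no interval within 1 kb of an end. Kcnn3 and Kcnn4 had 1272 and 1011 at sites away from any RefSeq start in the table, against 66 and 97 at their ends. Kcnh2 had 1066 inside, near its 3′ end. In all, 30 inside intervals, in 21 members, lay within 1 kb of a RefSeq start of the member itself. Counting such starts as ends, a choice made after seeing the data, 67 members (72.8%) were marked, against 68.2% of all protein-coding genes, and still 2 were strong.

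Inside intervals were the only marks of 21 members (22.8%), against 9.34% of all protein-coding genes. They were 5 Kcnj genes (Kcnj3, Kcnj9, Kcnj10, Kcnj14 and Kcnj15), 4 Kcnh genes, 4 Kcnk genes and 8 others. No interval at an end or inside was found at 11 of 92 members, beside a background of 25.6% of all protein-coding genes. With scores of at least 100 the number was 20 (21.7%, against 30.0% of all genes), and in the higher-scored 50% of intervals it was 23 (25.0%, against 30.8%). In the reported setting these were Kcna4, Kcna10, Kcnc1, Kcnd1, Kcne2, Kcnh8, Kcnk15, Kcnmb1, Kcnrg, Kcns2 and Kcnu1. Kcnh8 spans 376.5 kb without an interval, and Kcnmb1 lies within the bounds of Kcnip1.

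Marker genes of the labelled cells and of others were read from the same list. All 10 markers of crest mesenchyme were marked at an end (65.0% of all protein-coding genes), and 3 were strong (32.5% of all genes). Their median highest score was 1408, below the 2494 of all marked protein-coding genes. The scores ran from 87 at Prrx1 and 137 at Pdgfra to 4697 at Prrx2. Neuronal markers were marked in 8 of 10 (not Snap25 or Stmn2), with a median of 259 and a top score of 4646 at Elavl4, and crest glia and pigment markers in 6 of 6, with a median of 614. Skeletal muscle markers were marked in 5 of 7, with a median of 143 and none of them strong, endothelial markers in 5 of 5, with a median of 108, and surface epithelium markers in 4 of 5, with a median of 337. Blood markers were marked in 2 of 5, Spi1 with 1492 and Klf1 with 1480, and their median of 1486 was above that of crest mesenchyme, while Gata1, Hba-a1 and Ptprc had no interval at an end. The part of such cells in the marks at potassium channel genes was not tested.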

How the data were processed

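Per the text deposited with the list, the authors merged the reads of the 4 E10.5 wild-type H3K27ac libraries and called intervals with MACS2 2.1.3.3. Its options were no model, a shift of 0, reads extended to 141 bp, all duplicates and a q-value cutoff of 0.001, and the text names no input. Per the submitters' processing notes, Bowtie 1.1.1 and bcl2fastq 2.17 were among the tools, and the build was GRCm38 (mm10). The deposited score of each interval, from 31 to 3194311, is by MACS2 convention a scaled −log10 of the q-value, and piled-up duplicate reads can raise it. The list held 125826 intervals.

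Gene bounds came from RefSeq (GRCm38.p6), and strand and promoters from its promoter table. Overlaps were computed with Python 3.11.15, numpy 2.4.6 and pandas 2.3.3, and intervals for shares with scipy 1.17.1. Placement was tested on simulated data and put 200 of 200 cases right. Named genes were strong members, the leader of each subfamily, members with 10 or more inside intervals, members of subfamilies with none marked and the 3 nearest on each side of the threshold (only 2 lay above it); other members were named to account for the list. Protein sequences were not used here. Members and lists were chosen with earlier results of these data known. Other windows, score floors, overlaps and end definitions were tried. The 2 Kcn genes left out, and the single values of some members, are not reported here.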

Additional observations from a re-analysis of the deposited data

How the results depend on the processing

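Of 74 alternative values, 67 were within 1.5 times the reported count, or, for promoter composition, within 1 SD (a comparison that is void here). Strong members numbered 7 with a window of 2.5 kb (35.4% of all protein-coding genes there), of which 6, all but Kcna3, had their highest score at an interval within 1 kb of another protein-coding gene's end, such as Kcnj14 (14455, beside Cyth2). They numbered 1 (1.09%) when strong meant the 75th percentile of 4794, against 16.3% of all protein-coding genes. Members with no interval numbered 20 (21.7%) with scores of at least 100 and 23 (25.0%) in the higher-scored 50% of intervals, against 30.0% and 30.8% of all genes. Marked inward rectifiers numbered 6 (40.0%) in both of these settings, against 61.2% and 60.5% of all genes. Marked voltage-gated genes numbered 15 of the 25 with a known strand when only the 5′ end counted, and 16 of these 25 were marked at either end. When shared intervals were left out, the threshold was 1951 and Kcna3, Kcnk5 and Kcnn1 were strong. These were 3.26% of members, against 25.8% of all protein-coding genes. No paired analysis was possible because the list is a single call on merged libraries, and no library could be left out; the planned description of selectivity filters was not run. The unknown depth limits what can be said of genes with no interval: marks below the caller's limit cannot be seen.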

Other observations

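Some of the higher-scored intervals at members also had high scores for their width. They were picked for their scores, which favours high ranks, so the ranks describe these intervals and not the members as a set. The Kcnab2 interval of 558 bp scored 13111, above 99.8% of the 7686 intervals of the list within 10% of its width, whose median was 277. The inside interval of Kcnh1, 268 bp wide with a score of 1510, lay above 99.1% of 14420 such intervals (median 99), and that of Kcnn2 above 96.1% of 6571 (median 486). Those at the 5′ ends of Kcna3 and Kcnk5 lay closer to the middle, above 67.8% and 54.7% of intervals of their width. The inside interval of Kcnk2 lay above 71.9%. The part of piled-up reads in these scores was not tested.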
